A study of Mus musculus with 2 samples.

Results

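Receptor tyrosine kinases are single-pass membrane receptors that carry their own kinase. Ligand binding brings receptors together, they phosphorylate tyrosines on each other's tails, and adaptor proteins that dock there start Ras-ERK, PI3K and phospholipase C signalling. In the developing cortex these receptors are known for their roles in progenitor division (the FGF receptors), survival and maturation of neurons (the neurotrophin and insulin-like receptors) and the growth of blood vessels (the VEGF and angiopoietin receptors). The genes described are 35 receptor tyrosine kinases outside the Eph family, taken from a list by symbol and placed in 12 subfamilies, among the 47643 genes counted in each library. All 35 were found by gene ID in GENCODE M21, an annotation of GRCm38, the assembly of mm10.

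Cells came from the cortex of wild-type mouse embryos at E14, and the study asked which genes depend on PHF6, a chromatin protein mutated in an X-linked intellectual disability syndrome. The siPhf6 library is from cortical progenitors electroporated with a pool of Phf6 siRNAs, and the siCtl library from progenitors electroporated with a non-targeting siRNA. Both were cultured for 5 days, both carry the genotype WT and the sex M in the labels, and the total RNA was made into mRNA-seq libraries with a kit that does not mark strand. The files hold 1 library per group, so no difference has a replicate check, no p-value is given, and every comparison is of these libraries. The share of cells that the siRNAs reached, and how many cultures each library holds, are not given in the sources used here.

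The libraries hold 10561757 reads in genes (siPhf6) and 12155311 (siCtl), and the targeted gene had 310 reads in siPhf6 against 1420 in siCtl, 25.2% of the siCtl level. Levels are given as reads in the gene per 1000000 reads in genes (RPM) or, between genes, as RPM per kilobase of merged exons (RPKM). A ratio is the log2 of siPhf6 over siCtl with 1 read added to each count, followed by its exact (Clopper-Pearson) 95% interval, which covers counting error only. A gene was kept where either library had 150 or more of its reads, as 10130 were, and a kept gene was called higher or lower where its ratio passed 0.5 in either direction, a 1.41-fold difference. Among the 1522 kept genes whose summed reads passed 4000, where counting error is small, the robust SD of the ratios was 0.17, so ratios of that size were common among all genes. Tubb3, a tubulin of neurons, had 102 RPKM in siPhf6 and 103 in siCtl. Of the intermediate filament genes of radial glia, Vim was at 39.1 RPKM in siPhf6 and 32.2 in siCtl and Nes at 16.7 RPKM in siPhf6 and 9.80 in siCtl, so the cells labelled progenitors held transcripts of neurons beside those of progenitors.

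Of the 35 receptor genes, 19 were kept. Of these 19, 3 were called higher in siPhf6 (Ret, Axl and Fgfr3), 3 were called lower (Kit, Igf1r and Met) and 13 were not called. Calls in either direction took 10.5% of all kept genes, with 5.55% higher and 4.93% lower. The median ratio was 0.09 over the 19 receptors and 0.01 over all kept genes, and 12 of the 19 ratios were above 0 against 5243 of 10130. Summed over all 35 genes the receptors had 1974 RPM in siPhf6 and 2017 RPM in siCtl, so the total differed little between the libraries while Ret was at 311% and Kit at 35.4% of their siCtl levels. Ret was the one receptor that was kept through its reads in siPhf6 alone (566 of all kept genes passed through 1 library only), and the receptors chosen this way are not all receptors on the list.

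**Figure D1:**
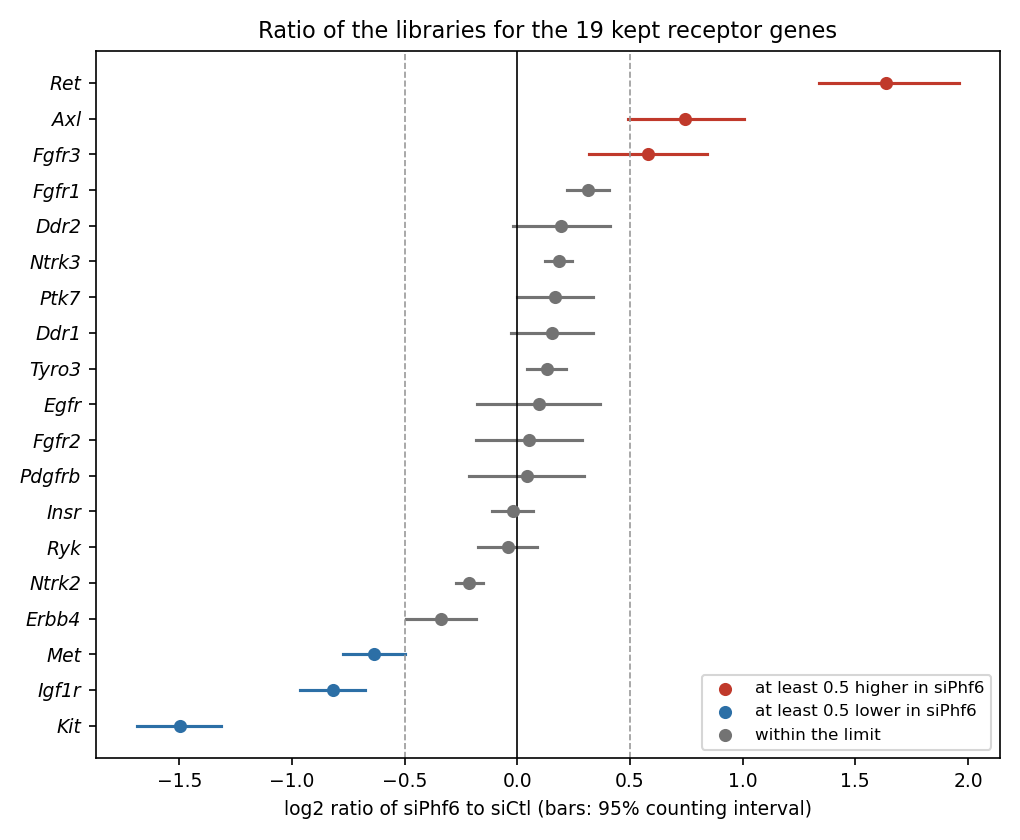
Log2 ratio, siPhf6 over siCtl, on the horizontal axis for the 19 kept receptor genes, sorted. Points are genes, bars 95% counting intervals and dashed lines the limit of 0.5. Ret (1.64), Axl (0.75) and Fgfr3 (0.58) lie beyond it on the right, and Met (-0.63), Igf1r (-0.82) and Kit (-1.50) on the left.

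The promoters of the called receptors are shown because the study looked for repeats of CA in the DNA that PHF6 binds. They come from RefSeq (build GRCm38.p6), which held a promoter for 27 of the 35 receptors and for 5 of the 6 called, Ret being the sixth. RefSeq has 2 windows each for Kit and Fgfr3 and 4 for Ddr1, of which the one starting nearest the GENCODE start is shown or described, while the shares of genes with a motif count any window of a gene. Each runs from 250 bases before the start to 30 after it, on the strand of the gene, and capitals mark the motifs CACACACA and GGGCGG (the GC box, bound by Sp1 factors), searched on both strands, TGTGTGTG and CCGCCC being the other strand. The motifs share no stretch with each other. The Kit window is chr5:75574737-75575016 on the plus strand, Igf1r chr7:67952007-67952286 on the plus strand, Met chr6:17463707-17463986 on the plus strand, Axl chr7:25788704-25788983 on the minus strand and Fgfr3 chr5:33721474-33721753 on the plus strand.
Kit, called lower: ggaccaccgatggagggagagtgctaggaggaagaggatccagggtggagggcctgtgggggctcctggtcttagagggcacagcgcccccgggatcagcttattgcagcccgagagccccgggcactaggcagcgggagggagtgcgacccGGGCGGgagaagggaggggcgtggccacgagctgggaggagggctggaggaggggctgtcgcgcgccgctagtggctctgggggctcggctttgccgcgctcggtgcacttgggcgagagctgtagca
Igf1r, called lower: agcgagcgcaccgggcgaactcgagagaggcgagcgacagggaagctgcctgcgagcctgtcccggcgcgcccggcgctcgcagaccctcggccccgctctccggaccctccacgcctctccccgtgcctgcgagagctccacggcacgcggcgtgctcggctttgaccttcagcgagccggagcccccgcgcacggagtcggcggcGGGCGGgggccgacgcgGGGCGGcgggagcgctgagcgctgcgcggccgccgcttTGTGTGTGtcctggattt
Met, called lower: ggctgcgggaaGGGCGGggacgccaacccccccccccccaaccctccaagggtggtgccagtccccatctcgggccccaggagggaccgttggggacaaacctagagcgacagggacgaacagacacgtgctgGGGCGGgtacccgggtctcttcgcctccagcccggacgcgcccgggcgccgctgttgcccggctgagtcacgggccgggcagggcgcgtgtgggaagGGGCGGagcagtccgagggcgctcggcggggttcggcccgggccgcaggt
Axl, called higher: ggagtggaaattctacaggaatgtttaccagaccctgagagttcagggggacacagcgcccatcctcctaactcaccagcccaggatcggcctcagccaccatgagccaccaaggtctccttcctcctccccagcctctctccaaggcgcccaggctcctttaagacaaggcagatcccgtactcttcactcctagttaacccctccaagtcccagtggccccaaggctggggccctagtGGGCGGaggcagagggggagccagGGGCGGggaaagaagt
Fgfr3, called higher: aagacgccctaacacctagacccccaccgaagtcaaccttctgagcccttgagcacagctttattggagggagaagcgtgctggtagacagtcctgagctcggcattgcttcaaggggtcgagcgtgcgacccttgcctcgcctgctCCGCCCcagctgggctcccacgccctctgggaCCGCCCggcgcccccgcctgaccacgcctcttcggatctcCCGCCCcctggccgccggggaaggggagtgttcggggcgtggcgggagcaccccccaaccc

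Of these windows only that of Igf1r held CACACACA, on the other strand and just after the RefSeq start. Igf1r was also the only receptor of the 27 with a match (3.70%), where 4.42% of 27025 genes had one. The study's own element was the (CA)n microsatellite at the centre of its PHF6 peaks, in promoters and elsewhere. Those peaks were not searched here. The GC box was in all 5 windows, in 19 of the 27 receptors (70.4%) and in 37.3% of all genes with a promoter. The windows were rich in G and C, at 70.0% for Kit, 75.7% for Igf1r, 75.0% for Met, 60.7% for Axl and 68.2% for Fgfr3. These letters are a description and not binding sites, and the starts are those of RefSeq, which can differ from the GENCODE starts given with the genes.

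Levels per length differed widely among the receptors, and Tyro3, Ntrk2, Fgfr1 and Ryk took the first 4 places in both libraries. Tyro3, a TAM receptor of neurons, was highest at 31.9 RPKM in siPhf6 and 29.2 in siCtl. It was followed in siCtl by Ntrk2 (23.1), Ryk (19.2), Fgfr1 (15.0), Met (12.9), Insr (12.6), Ntrk3 (12.5) and Kit (9.32). Neighbours in the order were often not apart beyond counting error, among them Met and Insr, Insr and Ntrk3, and Kit and Ptk7 in siCtl, and Fgfr1 and Ryk in siPhf6. Among the 30 receptors with over 3 reads, 12 of the 29 neighbouring pairs in siPhf6 and 11 of 29 in siCtl had a quotient whose 95% counting interval excluded 1. Kit stood at place 17 of 35 in siPhf6 and 8 in siCtl, Igf1r at 16 and 11, Met at 9 and 5, and Ret at 11 and 19. These are places in an order of levels, in which some neighbouring genes lie near each other in level and others do not.

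**Figure D2:**
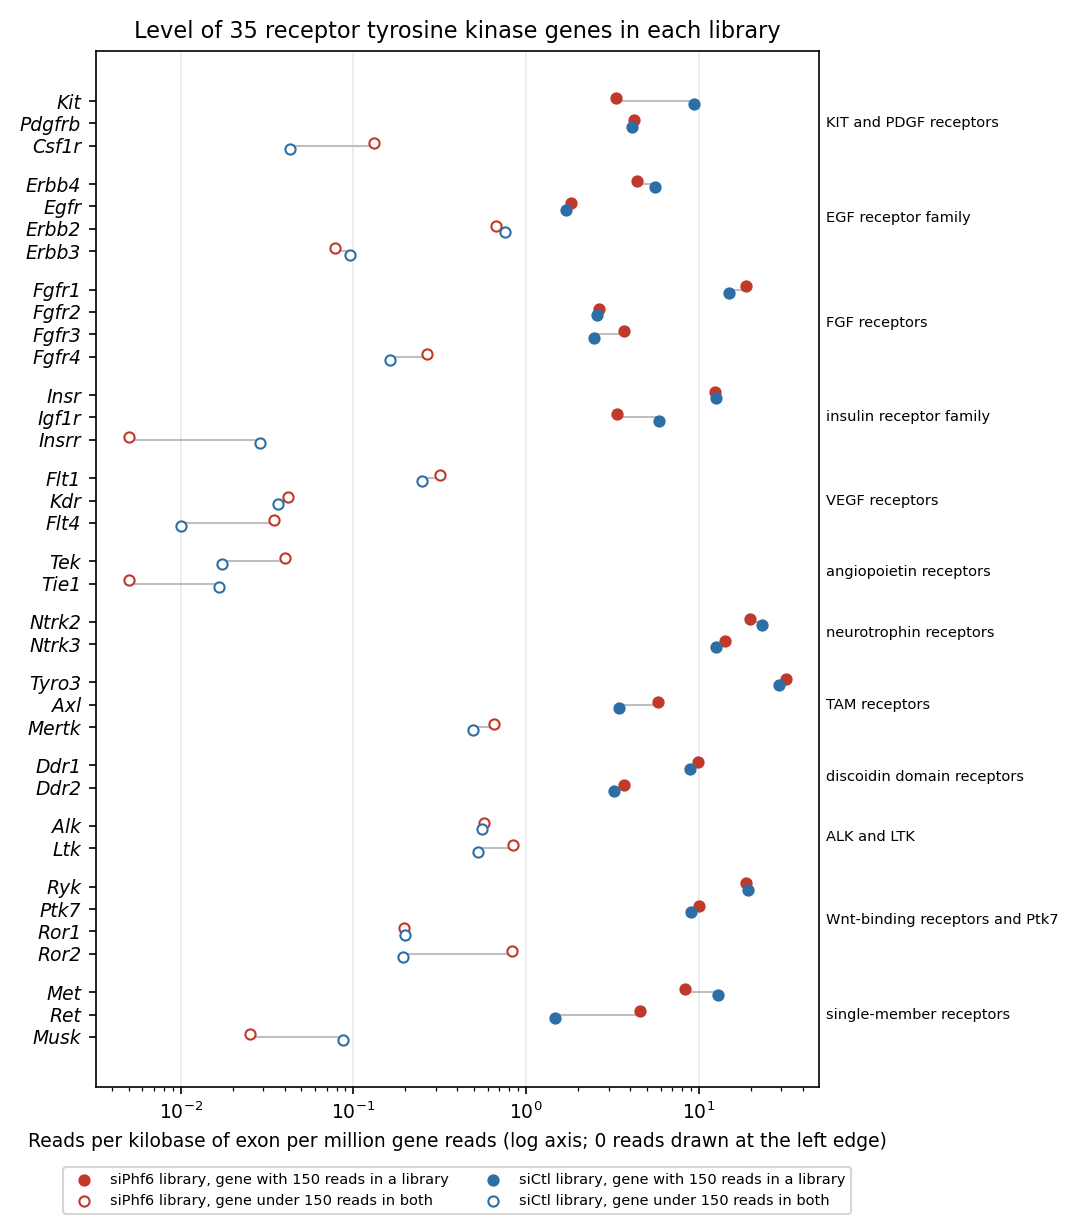
Level of each of the 35 receptor genes in RPKM (horizontal log axis) in siPhf6 (red) and siCtl (blue), 1 row per gene, grouped by subfamily. Filled points are the 19 kept genes and open points the 16 with under 150 reads in both libraries. Kit and Ret, whose points lie farthest apart among the filled ones, are at 3.29 and 9.32 RPKM and 4.56 and 1.46 RPKM in siPhf6 and siCtl.

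In the family of KIT and the PDGF receptors, Kit was lower and Pdgfrb was not called. Kit encodes the receptor for stem cell factor, known for its roles in blood, germ and pigment cells and also present in neurons. The gene, at chr5:75574916-75656722 on the plus strand, had 310 reads in siPhf6 and 1009 in siCtl, or 35.4% of the siCtl level (-1.50, -1.69 to -1.31), at 29.4 RPM in siPhf6 and 83.0 in siCtl. Its ratio was at place 10 from the lowest among the 10130 kept genes. Pdgfrb, the PDGF receptor of pericytes and other mural cells, had 245 reads in siPhf6 and 274 in siCtl (0.04, -0.21 to 0.30). The ratio of Kit was lower than that of Pdgfrb by more than counting error (difference -1.54, 95% counting interval -1.85 to -1.23). Csf1r, the receptor of microglia and macrophages, had 8 reads in siPhf6 and 3 in siCtl, and its neighbour Pdgfrb lies 15536 bases away on chromosome 18.

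In the insulin receptor family Igf1r was lower and Insr was not. Igf1r encodes the receptor for the insulin-like growth factors, which promotes growth and survival of neurons and progenitors. It lies at chr7:67952827-68233668 on the plus strand and had 594 reads in siPhf6 and 1206 in siCtl, 56.7% of the siCtl level (-0.82, -0.96 to -0.68), place 113 from the lowest, at 56.2 RPM in siPhf6 and 99.2 in siCtl. Insr, the insulin receptor, had 1808 reads in siPhf6 and 2110 in siCtl (-0.02, -0.11 to 0.07). The difference between them was -0.80, 95% counting interval -0.97 to -0.63, and the quotient of Igf1r to Insr reads was 0.329 in siPhf6 and 0.572 in siCtl. Insrr, the insulin receptor-related receptor, had 0 reads in siPhf6 and 2 in siCtl.

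Met and Ret, both without close relatives on the list, differed in opposite directions. Met encodes the receptor of hepatocyte growth factor, which acts in the growth of axons and dendrites of cortical projection neurons. It lies at chr6:17463800-17573980 on the plus strand and had 673 reads in siPhf6 and 1203 in siCtl, 64.4% of the siCtl level (-0.63, -0.77 to -0.50), place 267 from the lowest, at 63.7 RPM in siPhf6 and 99.0 in siCtl. Ret encodes the signalling receptor of the GDNF family ligands, best known in enteric, sympathetic and motor neurons. At chr6:118151745-118197718 on the minus strand, it had 326 reads in siPhf6 and 120 in siCtl (1.64, 1.34 to 1.96), or 311% of the siCtl level, at 30.9 RPM in siPhf6 and 9.87 in siCtl, place 15 from the highest. Musk, the agrin receptor of muscle at the neuromuscular junction, had 1 read in siPhf6 and 4 in siCtl.

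Of the FGF receptors Fgfr3 was called higher, and Fgfr1 and Fgfr2 were not called. Together they had 2527 reads in siPhf6 and 2347 in siCtl (0.31, 0.23 to 0.39), the highest summed ratio above 0 among subfamilies with a kept gene. Fgfr3, a receptor of radial glia and astrocytes, lies at chr5:33721674-33737068 on the plus strand and had 278 reads in siPhf6 and 214 in siCtl (0.58, 0.32 to 0.84), place 430 from the highest, at 26.3 RPM in siPhf6 and 17.6 in siCtl. Fgfr1, the receptor with the most reads of the family, had 1949 reads in siPhf6 and 1804 in siCtl (0.31, 0.22 to 0.41) and was not called. Fgfr2 had 290 reads in siPhf6 and 322 in siCtl (0.05, -0.18 to 0.29), and Fgfr4 had 10 reads in siPhf6 and 7 in siCtl. The ratio of Fgfr3 exceeded that of Fgfr2 by more than counting error (difference 0.53, 95% counting interval 0.18 to 0.87), while the interval against Fgfr1 included 0 (difference 0.26, 95% counting interval -0.01 to 0.54). Exons of Fgfr3 share 13.9% of their bases with G630022F23Rik on the opposite strand, a gene with 5 reads in siPhf6 and 11 in siCtl, and reads of such a pair cannot be told apart without strand. Exons of 7 receptors overlap another gene, the others being Csf1r, Ddr1, Ddr2, Erbb2, Fgfr1 and Fgfr2. Csf1r shares 15.1% with Hmgxb3 on the opposite strand, a gene with 1194 reads in siPhf6 and 1348 in siCtl. Fgfr2 shares 3.04% with Ctbp2 on the same strand, with 421 reads in siPhf6 and 453 in siCtl.

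The TAM receptors bind Gas6 and protein S and are known for the clearance of dying cells. Axl, at chr7:25757273-25788705 on the minus strand, had 308 reads in siPhf6 and 211 in siCtl (0.75, 0.49 to 1.01), 168% of the siCtl level and place 253 from the highest, at 29.2 RPM in siPhf6 and 17.4 in siCtl. Tyro3, with the highest level of all the receptors, had 2091 reads in siPhf6 and 2198 in siCtl (0.13, 0.04 to 0.22) and was not called. Axl exceeded Tyro3 in ratio by more than counting error (difference 0.62, 95% counting interval 0.35 to 0.88). Mertk, the TAM receptor of macrophages and astrocytes, was under the filter with 30 reads in siPhf6 and 26 in siCtl.

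The neurotrophin receptors had the most reads of any subfamily and neither was called. Ntrk2, the receptor TrkB for BDNF, had 4053 reads in siPhf6 and 5406 in siCtl (-0.21, -0.27 to -0.15), and Ntrk3, the receptor TrkC for neurotrophin-3, had 4540 reads in siPhf6 and 4602 in siCtl (0.18, 0.12 to 0.24). Their ratios had opposite signs and differed from each other by more than counting error (Ntrk2 minus Ntrk3 -0.40, 95% counting interval -0.48 to -0.31). Ntrk3 thus had more reads than Ntrk2 in siPhf6, and Ntrk2 more than Ntrk3 in siCtl. Their summed reads gave a ratio of -0.02 (-0.06 to 0.02). Counts per gene do not separate the full-length receptors from forms without the kinase, which both genes also make.

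In the EGF receptor family, no gene was called. Erbb4, a neuregulin receptor of cortical interneurons, came nearest, with 574 reads in siPhf6 and 835 in siCtl (-0.34, -0.49 to -0.18), an interval that excludes 0 but a ratio inside the limit. Egfr, a receptor of dividing progenitors and glia, had 217 reads in siPhf6 and 234 in siCtl (0.09, -0.18 to 0.37). Erbb2, which binds no ligand of its own and pairs with other members, had 37 reads in siPhf6 and 48 in siCtl, and Erbb3, a neuregulin receptor with a weak kinase that is prominent in Schwann cells, had 5 and 7.

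Of the receptors that bind Wnt proteins or matrix, the kept ones had ratios of -0.04 to 0.19. Ryk, a Wnt receptor without active kinase, had 894 reads in siPhf6 and 1060 in siCtl (-0.04, -0.17 to 0.09), and Ptk7, a pseudokinase of planar cell polarity, had 572 reads in siPhf6 and 587 in siCtl (0.17, -0.00 to 0.33). The discoidin domain receptors bind collagen, and Ddr1 had 496 reads in siPhf6 and 513 in siCtl (0.15, -0.03 to 0.34) and Ddr2 359 reads in siPhf6 and 361 in siCtl (0.19, -0.02 to 0.41). None of these was called. Ror2, a receptor for Wnt5a, was under the filter at 37 reads in siPhf6 and 10 in siCtl (1.99, 1.05 to 3.26), the one receptor outside the kept set whose interval excluded 0, while Ror1 had 12 and 14.

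The receptors of blood vessels were all under the filter, and all but Flt1 were near the limit of detection. Kdr, the main VEGF receptor of endothelial cells, had 4 reads in each library, and it lies 276104 bases from Kit on chromosome 5. Flt1, a VEGF receptor that also has a soluble form, had 45 reads in siPhf6 and 41 in siCtl, and Flt4, of lymphatic vessels, had 3 and 1. Tek, the angiopoietin receptor Tie2, had 2 and 1 reads, and Tie1, its partner, 0 and 1. A count of 0 allows up to 3 reads per library, so no fold is given for Tie1 or Insrr. Of the ALK and LTK pair, which bind the ALKAL ligands, Alk had 47 reads in siPhf6 and 52 in siCtl and Ltk 32 and 23. The 16 receptors under the filter had 273 reads in siPhf6 and 244 in siCtl together.

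**Figure D3:**
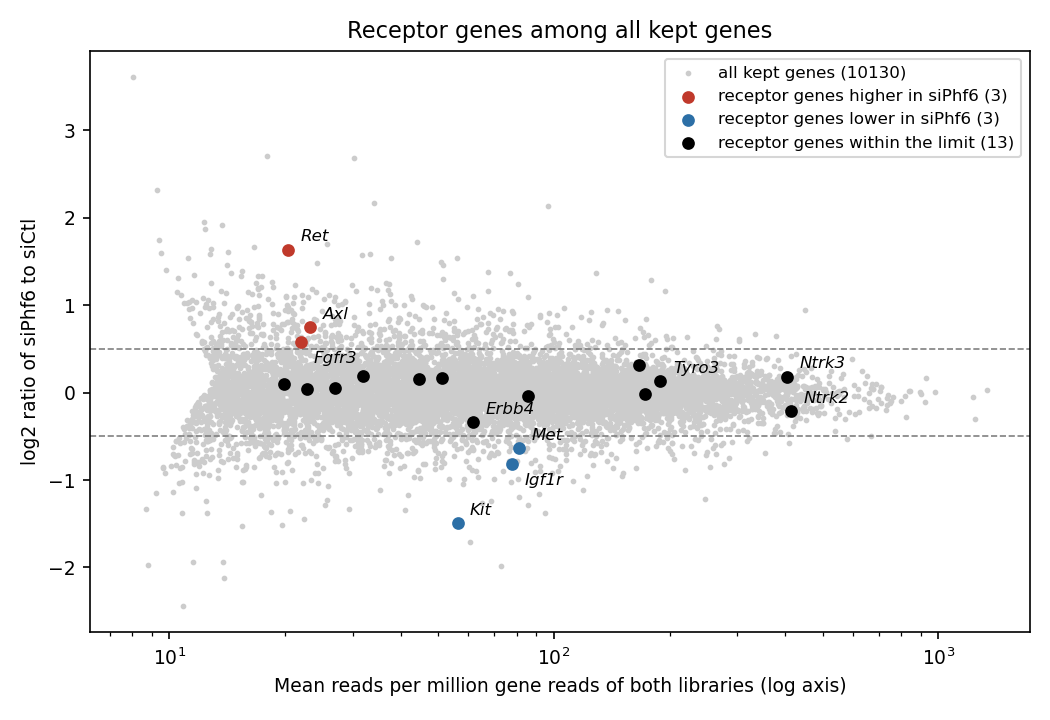
Mean RPM of both libraries (horizontal log axis) against the log2 ratio (siPhf6 over siCtl, vertical axis) for 10130 kept genes (grey) and the 19 kept receptors (red called higher, blue called lower, black not called). Dashed lines mark 0.5. Ret at 1.64 and Kit at -1.50 stand near the edge of the grey points, while Ntrk2 and Ntrk3, the receptors with the most reads, lie near 0.

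Markers of some cell types also differed between the libraries, and their part in the receptor results was not tested. In bulk samples fewer cells of a type and less RNA per cell cannot be told apart. Beside the shares over all kept genes, 5.55% higher and 4.93% lower, the marker lists are short, and some of their genes were kept only through the library in which they were higher. Of the kept radial glia markers 2 of 6 were called higher, Nes (0.77, 0.64 to 0.91) and Slc1a3 (0.71, 0.57 to 0.85), and none lower, with a summed level of 720.4 RPM in siPhf6 and 554 in siCtl. Of those not called, Sox2 had a ratio below 0 (-0.22, -0.49 to 0.04), and Vim, Fabp7 and Ptprz1 had ratios above 0.

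Of the kept astrocyte markers 3 of 6 were higher and none lower (530.5 RPM in siPhf6 and 384 in siCtl). These were Slc1a2, the glial glutamate transporter (0.59, 0.52 to 0.66), Sox9 (0.51, 0.34 to 0.67) and Aqp4 (0.80, 0.44 to 1.18), the last kept through siPhf6 alone, while Gfap (-0.14, -0.36 to 0.07) and Gja1 (-0.02, -0.25 to 0.21) had ratios below 0 and Aldoc one above 0 (0.13, -0.13 to 0.39). Of 3 kept oligodendrocyte lineage markers Olig1 (0.80, 0.56 to 1.04) and Olig2 (1.15, 0.76 to 1.57) were higher, Olig2 being kept through siPhf6 alone, and Mbp was not called (-0.31, -0.55 to -0.08), with a summed level of 96.3 RPM in siPhf6 and 78.2 in siCtl.

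Markers of postmitotic neurons (0 of 10 called, 3252 RPM in siPhf6 and 3193 in siCtl) and of glutamatergic neurons (0 of 8, 1235 RPM in siPhf6 and 1335 in siCtl) were not called in either direction. Of the 7 kept GABAergic interneuron markers, Lhx6 (-0.80, -1.09 to -0.52) and Dlx1 (-0.58, -0.81 to -0.36) were lower and none higher (349 RPM in siPhf6 and 354 in siCtl). Among those not called, Slc32a1 (-0.26, -0.48 to -0.04) and Npy (-0.03, -0.38 to 0.31) had ratios below 0, and Gad1 (0.10, -0.00 to 0.20), Gad2 (0.19, 0.05 to 0.33) and Sst (0.24, 0.02 to 0.46) above 0. Of the endothelial markers none of 10 was kept (20 RPM in siPhf6 and 21.0 in siCtl), and the defining markers Cldn5 and Sox17 were at 0 in both libraries, as were C1qa, C1qb and C1qc among the microglial markers, of which also none was kept (11.7 RPM in siPhf6 and 13.4 in siCtl). Of 3 kept mural markers Acta2 was lower, with 89 reads in siPhf6 and 195 in siCtl. The others were not called, Rgs5 with a ratio below 0 (-0.33, -0.57 to -0.10) and Notch3 above 0 (0.26, 0.06 to 0.45). The 7 mural markers under the filter, Vtn and Kcnj8 among them, had 0 to 11 reads in siPhf6 and 1 to 14 in siCtl. Summed over the list, the mural markers had 78.1 RPM in siPhf6 and 83.7 in siCtl, most of it from the kept genes. The one kept meningeal fibroblast marker, the collagen gene Col1a1, was higher, with 154 reads in siPhf6 and 52 in siCtl. Under the filter, Col1a2 (1.02, 0.62 to 1.44) and Col3a1 (1.31, 0.63 to 2.08) had ratios above 0 and Foxc1 (-1.49, -2.95 to -0.43) below 0. Summed over the list, the meningeal fibroblast markers had 39.6 RPM in siPhf6 and 21.2 in siCtl. Acta2 and Col1a1 were each kept only through the library in which they were higher.

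Of 63 ligand genes of these receptors, 15 were kept, 3 were called higher and none lower, beside 5.55% and 4.93% of all kept genes, with a median ratio of 0.16. The higher ones were Pdgfb, a ligand of Pdgfrb, with 250 reads in siPhf6 and 125 in siCtl (1.20, 0.89 to 1.52), Hbegf, a ligand of Egfr and Erbb4, with 493 reads in siPhf6 and 293 in siCtl (0.95, 0.74 to 1.17), and Angpt1, the ligand of Tek, with 197 reads in siPhf6 and 124 in siCtl (0.87, 0.54 to 1.21). Pdgfb and Angpt1 were kept through siPhf6 alone. The ligand with the most reads per length was Bdnf, the ligand of Ntrk2, at 56.0 RPKM in siPhf6 and 44.5 in siCtl (0.33, 0.26 to 0.40), which was not called.

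The ligands of the called receptors, named for that reason, were not called themselves where they were kept. Kitl, the ligand of Kit, had 1463 reads in siPhf6 and 1457 in siCtl (0.21, 0.10 to 0.31), and Igf1, a ligand of Igf1r, had 800 reads in siPhf6 and 990 in siCtl (-0.10, -0.24 to 0.03). Gas6, the ligand of Axl, had 664 reads in siPhf6 and 685 in siCtl (0.16, 0.00 to 0.31). Kit was thus called lower and its ligand was not called. No FGF gene on the ligand list was kept, and of these Fgf2 (49 reads in siPhf6 and 23 in siCtl; 1.26, 0.55 to 2.08), Fgf18 (59 reads in siPhf6 and 37 in siCtl; 0.86, 0.26 to 1.51) and Fgf15 (11 reads in siPhf6 and 2 in siCtl; 2.20, 0.47 to 5.88) had intervals above 0. Pros1, the gene of protein S and listed for the TAM receptors as a group, was also under the filter. It had 93 reads in siPhf6 and 72 in siCtl (0.57, 0.11 to 1.04). Igf2 was under the filter too, with 7 reads in siPhf6 and 13 in siCtl. Of the other ligands under the filter, Tgfa (-0.64, -1.10 to -0.20) and Ntf3 (-0.66, -1.11 to -0.24) had intervals below 0. Il34 (0.99, 0.25 to 1.80) and Alkal2 (1.24, 0.78 to 1.75) had intervals above 0. Hgf, the ligand of Met, was under the filter with 49 reads in siPhf6 and 38 in siCtl, and the Ret ligands Gdnf, Nrtn, Artn and Pspn had 0 to 4 reads in siPhf6 and 4 to 10 in siCtl. The coreceptors through which those ligands reach Ret were present without a call, Gfra1 at 294 and 294 reads in siPhf6 and siCtl, Gfra2 at 265 and 287 and Gfra4 at 266 and 288, while Gfra3 was at 0 in both.

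Of 9 coreceptors and decoys 3 were kept and none was called (median 0.09), Gfra4 having the highest level per length. Under the filter, Ngfr had an interval below 0 (-1.22, -2.06 to -0.52) and Fgfrl1 one above 0 (0.76, 0.33 to 1.22). Of 11 negative regulators 8 were kept, 1 was higher and none lower (median 0.09), or 12.5% called beside 10.5% of all kept genes. The higher one was Lrig1, a membrane protein that promotes loss of EGF receptors, with 569 reads in siPhf6 and 434 in siCtl (0.59, 0.41 to 0.78), and the phosphatase gene Ptpn1 had the highest level (28.9 RPKM in siPhf6 and 27.2 in siCtl).

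Of 41 adaptor and effector genes 34 were kept, 3 were higher and 1 lower, or 11.8% called beside 10.5% of all kept genes, with a median of 0.04. The lower one was Pik3r1, the p85-alpha regulatory subunit of PI3K, with 1632 reads in siPhf6 and 3045 in siCtl (-0.70, -0.78 to -0.61). Its relative Pik3r3, the p55-gamma subunit, was higher with 1446 reads in siPhf6 and 1151 in siCtl (0.53, 0.42 to 0.64), as were Shc4, an adaptor, with 264 reads in siPhf6 and 163 in siCtl (0.90, 0.61 to 1.19), and Sos2, a Ras exchange factor, with 1056 reads in siPhf6 and 850 in siCtl (0.52, 0.38 to 0.65). The adaptor Dok5 had the highest level per length, 67.2 RPKM in siPhf6 and 64.6 in siCtl, and was not called (0.06, -0.06 to 0.17). Calls thus went in both directions within the PI3K regulatory subunits, with 1 gene each way. Pik3r2, another such subunit, was not called (-0.11, -0.20 to -0.01).

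The Eph receptors, the family of receptor tyrosine kinases that the study followed, had 14 genes, of which 10 were kept, 1 called higher and 3 lower at the same limit, with a median of -0.21. Epha10 was higher (1.09, 0.72 to 1.47), Epha6 (-0.71, -1.06 to -0.37), Epha3 (-0.70, -0.78 to -0.62) and Ephb1 (-0.69, -1.03 to -0.36) were lower, and Epha4, with the highest level per length at 37.3 RPKM in siPhf6 and 47.3 in siCtl, was not called (-0.34, -0.41 to -0.28). Of these calls, Epha10 (176 reads in siPhf6 and 95 in siCtl), Epha6 (108 reads in siPhf6 and 204 in siCtl) and Ephb1 (116 reads in siPhf6 and 216 in siCtl) were of genes kept only through the library in which they were higher. The study followed Epha4, Epha7, Ephb1 and Ephb2 in particular, chosen from genes significantly deregulated in its RNA-seq, given as n = 3 per group. A call here is a fold limit on 1 library per group and not the study's test. Epha7 (-0.30, -0.41 to -0.19) and Ephb2 (-0.11, -0.19 to -0.04) were not called, with intervals below 0. Of the 10 kept Eph genes, 3 had ratios above 0. In neural stem cells with Phf6 deleted, the study reported lower mRNA and protein of each gene it followed. It also reported lower Eph receptor mRNA and protein in brain tissue of mice with patient mutations of Phf6. For Epha4, Epha7 and Ephb1 it further reported PHF6 binding by ChIP-qPCR and effects in reporter assays. The share called over all kept genes was 10.5%, and no test of a difference between the families was made.

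**Figure D4:**
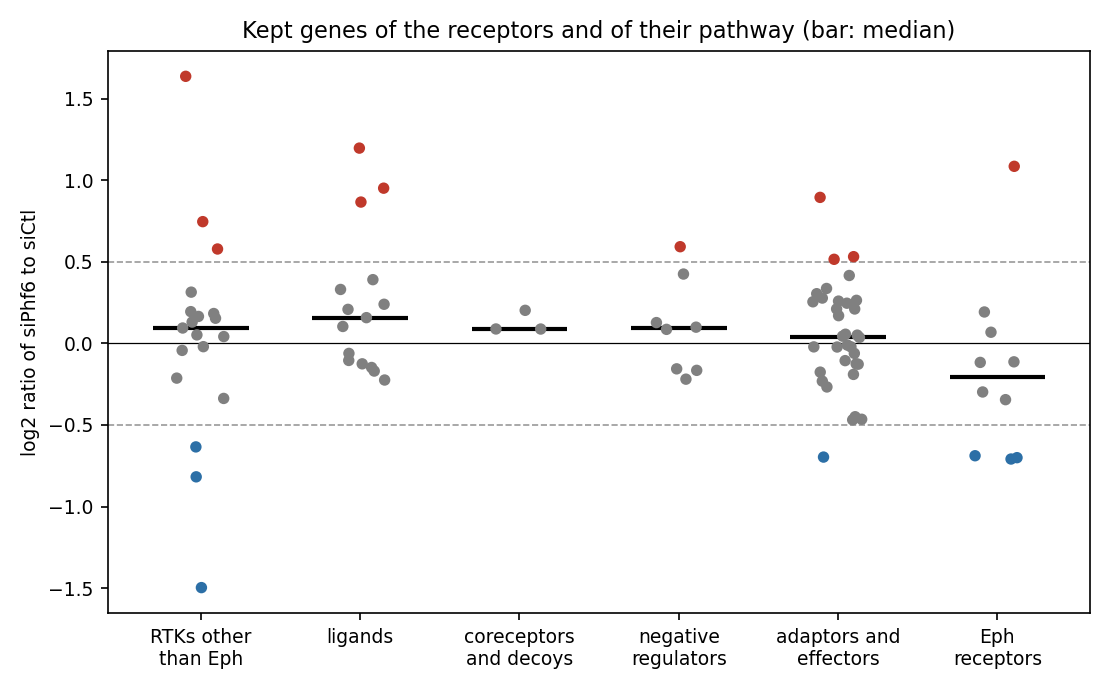
Log2 ratio, siPhf6 over siCtl, on the vertical axis for kept genes of the receptors (19), ligands (15), coreceptors and decoys (3), negative regulators (8), adaptors and effectors (34) and Eph receptors (10). Points are genes (red called higher, blue called lower, grey not called), black bars medians and dashed lines the limit of 0.5. The receptors spread from -1.50 to 1.64, while no kept ligand lies below -0.22.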

How the data were processed

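mRNA-seq read counts of 1 siPhf6 and 1 siCtl library of mouse cortical progenitors were used, with groups taken from the treatment label. Alignment by the authors was to mm10 (HISAT2), duplicates were taken out with samtools, and HTSeq then assigned reads to the genes of GENCODE M9. Versions of these tools and the strand setting are not given in the sources used here. The submitters' processing notes also name deepTools 3.5.1. The deposited counts are whole reads per gene without normalization. Reads in no gene (24.1% in siPhf6 and 25.3% in siCtl) and ambiguous reads (2.04% and 1.99%) stayed out of all totals. The study gives n = 3 per group; whether a library holds pooled cultures is not stated. Removing duplicates lowers the counts of abundant genes most.

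The filter of 150 reads is the study's own. With 1 library per group edgeR and DESeq2 can estimate no spread, so neither test was run. Genes were called across all kept genes by the size of the ratio (limit 0.5), with 1 read added and totals of gene reads as the scale. Symbols, positions and merged exon lengths are from GENCODE M21 (GRCm38), which matched 10114 of 10130 kept genes. Differences within a subfamily have a normal 95% interval from the 4 counts. The interval and call code was tested on simulated counts. The members, the lists, the marker lists and the limit were chosen with earlier results of these data known. All members were named. Of each pathway list the called genes and the gene with the highest level were named. Kitl, Igf1, Igf2, Gas6, Pros1, Hgf, FGF genes and the Ret ligands and coreceptors were added for their link to called receptors or their subfamilies. The FGF genes were added after their values were seen. Of the marker lists more genes than the defining ones were named, also after their values were seen. Named in the same way were ligands, coreceptors and decoys under the filter whose intervals excluded 0, and Epha7, Ephb2 and Pik3r2. Alternatives were scaling by TMM (edgeR 4.0.16) or by the size factors of DESeq2 1.42.0, totals that leave out mitochondrial and the 50 most abundant genes, other added reads, filters and limits, trends on length and GC content, and an assumed variation between cultures. Python 3.11.15 and scipy 1.17.1 were used.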

Additional observations from a re-analysis of the deposited data

How the results depend on the processing

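The 6 called receptors kept their calls under both other scalings (TMM and DESeq2 size factors) and without mitochondrial and top 50 genes in the totals. They also kept them with 0.5 or 10 reads added and with a trend on length or GC content subtracted. No other kept receptor gained a call under these settings. When cultures were assumed to vary with a coefficient of variation of 0.1, a call could be removed but not gained, and the 6 calls stayed. Among all kept genes 558 of 562 higher and 492 of 499 lower calls also stayed, so this setting tested little. Over the 7 settings that change ratios and the value reported, Kit ran from -1.51 to -1.46, Igf1r from -0.83 to -0.76, Met from -0.64 to -0.60, Fgfr3 from 0.56 to 0.61, Axl from 0.73 to 0.76 and Ret from 1.57 to 1.67. Of 133 alternative values of single receptors, 131 stayed inside the counting interval and 2 did not, Ntrk2 and Ntrk3 with a length trend subtracted (-0.15 and 0.25). The median of all kept genes moved by at most 0.01 under the other scalings. Scaling moves every ratio alike, so these settings could change no receptor call and added little to the 131 values.

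Filters and limits changed the counts. At a minimum of 10 reads, 6 receptors were higher (Fgfr4, Ltk and Ror2 joined), as were 12 ligands (5 lower), 1 coreceptor or decoy (1 lower), 5 adaptors and effectors, 2 Eph receptors and 1971 of all genes (1511 lower). At a minimum of 500 reads, 0 receptors, 0 ligands and 0 Eph receptors were higher, 1 Eph receptor was lower, and 247 of all genes were higher and 259 lower; Ret, Axl and Fgfr3 are under that minimum. The coreceptors had no gene left there and no median. At a limit of 0.25, Fgfr1 joined the higher and Erbb4 the lower receptors; 5 ligands, 2 negative regulators and 10 adaptors and effectors (5 lower) were higher, 5 Eph receptors were lower, and 1613 of all genes were higher and 1550 lower. At a limit of 1, 1 receptor was higher (Ret) and 1 lower (Kit), 1 ligand was higher, 0 negative regulators and 0 adaptors and effectors were called higher, 0 adaptors and effectors and 0 Eph receptors lower, and 107 of all genes were higher and 48 lower.

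Depth limits the 16 receptors under the filter most. No paired analysis was possible because each group has 1 library. The assumed variation is not an estimate from these data.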
